A study of Mus musculus with 6 samples.

Results

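The keratins of the inner root sheath of the hair follicle, Krt25, Krt26, Krt27, Krt28, Krt71, Krt72, Krt73 and Krt74, and the sheath's matrix protein gene trichohyalin, Tchh, were followed in mouse skin under chronic restraint stress. They were chosen by symbol as a known gene family, with earlier results of these data in view, and are 9 of the 54146 gene identifiers measured. The 6 RNA libraries came from whole skin: 3 of control mice (CON) and 3 of mice put through chronic restraint stress (CRS), a model of psychological stress in which an animal is confined again and again. Skin was sampled after 12 weeks. With 3 mice in each group by the study's design, a library is read here as a mouse. The sources used here do not give strain, genotype, sex, age or the body site of the skin.

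The inner root sheath is the sleeve of cells that surrounds a growing hair, moulds it while it is still soft and is shed below the skin surface. It is made only while the follicle grows and is lost as the follicle regresses. From outside to inside it consists of Henle's layer, Huxley's layer and a cuticle. Its keratins are obligate pairs of a type I and a type II protein, which assemble into filaments. Trichohyalin fills the space between the filaments, where deiminases turn its arginines into citrulline and transglutaminases link it into a hard matrix. Mutations of Krt25 and Krt71 underlie the wavy coats of the mouse alleles Rex and Caracul. In human follicles KRT25, KRT27, KRT28 and KRT71 are found in all layers of the sheath, KRT26, KRT72 and KRT73 in its cuticle and KRT74 in Huxley's layer.

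The type I genes Krt25, Krt26, Krt27 and Krt28 lie side by side on mouse chromosome 11. The type II genes Krt71, Krt74, Krt72 and Krt73 follow each other in that order on chromosome 15, with Krt5 on one side and Krt2 on the other. Tchh lies on chromosome 3 between Rptn and Tchhl1. In the mouse annotation Krt74 is a transcribed pseudogene, while the other 8 are protein-coding. The longest stretch of transcript that a member had exactly in common with another gene was at most 105 nt, between Krt25 and Krt27, and at most 88 nt between Krt71 and Krt74. Read length was not given, so fragments inside such stretches may have been counted for the wrong gene.

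The DNA just before the starts of these genes is shown because the genes are so abundant and because their levels moved together across libraries. RefSeq (GRCm38.p6) held a promoter for 8 of the 9, all but Krt74. The last 60 bases before the start are printed 5′ to 3′ on the gene's own strand, with matches of TATAAA and CTTTGA, read on both strands, in capitals:
Krt25, chr11:99322952-99323011, minus strand: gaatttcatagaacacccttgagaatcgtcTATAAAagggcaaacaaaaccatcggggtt
Krt26, chr11:99337966-99338025, minus strand: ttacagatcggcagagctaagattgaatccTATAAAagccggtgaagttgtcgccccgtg
Krt27, chr11:99351119-99351178, minus strand: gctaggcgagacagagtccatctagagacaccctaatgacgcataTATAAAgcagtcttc
Krt28, chr11:99374904-99374963, minus strand: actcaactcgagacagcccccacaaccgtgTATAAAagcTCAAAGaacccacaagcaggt
Krt71, chr15:101743098-101743157, minus strand: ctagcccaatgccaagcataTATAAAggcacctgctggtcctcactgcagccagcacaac
Krt72, chr15:101786521-101786580, minus strand: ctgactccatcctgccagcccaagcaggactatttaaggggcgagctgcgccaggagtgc
Krt73, chr15:101802361-101802420, minus strand: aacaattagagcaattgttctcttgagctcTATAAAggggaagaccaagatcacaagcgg
Tchh, chr3:93442270-93442329, plus strand: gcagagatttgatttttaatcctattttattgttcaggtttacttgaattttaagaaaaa

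The letters TATAAA stood in the last 50 bases before the start, on the gene's strand, in 6 of these 8 promoters and in 2.63% of 32851 promoters of the table. In Krt25, Krt26, Krt28 and Krt73 they began 30 bases before the start. Krt71 had them 40 bases and Krt27 15 bases before the start. Over the whole 300 bases of the table (250 before and 50 after the start) and both strands, TATAAA was found in 7 of 8 against 13.6% of all promoters. CTTTGA, letters bound by Lef and Tcf factors, was found in 2 of 8 (Krt28 and Tchh) against 16.0%.

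AGATAA, letters that GATA factors bind, was found in 5 of the 8 promoters against 11.2% of all. The search again covered both strands, and all 5 matches stood on the gene's own strand, between 225 and 154 bases before the start. Gata3 is a known regulator of inner root sheath fate in mice, which is why these stretches are shown. For Krt71 and Krt73, a pair of type II genes with Krt74 and Krt72 between them, all 250 bases before the start are printed, and for the others 60 bases around the match, again with all matches in capitals:
Krt71, chr15:101743098-101743347, minus strand: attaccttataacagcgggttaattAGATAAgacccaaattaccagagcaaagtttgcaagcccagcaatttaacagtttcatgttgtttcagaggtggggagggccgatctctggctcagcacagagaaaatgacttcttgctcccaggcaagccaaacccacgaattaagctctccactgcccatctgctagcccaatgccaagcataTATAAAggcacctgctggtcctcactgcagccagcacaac
Krt73, chr15:101802361-101802610, minus strand: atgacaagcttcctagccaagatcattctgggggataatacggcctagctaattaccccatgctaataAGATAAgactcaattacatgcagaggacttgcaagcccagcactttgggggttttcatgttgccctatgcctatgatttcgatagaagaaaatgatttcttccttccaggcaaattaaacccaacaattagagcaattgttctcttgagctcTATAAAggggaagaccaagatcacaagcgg
Krt25, chr11:99323113-99323172, minus strand: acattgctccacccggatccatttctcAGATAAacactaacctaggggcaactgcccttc
Krt27, chr11:99351269-99351328, minus strand: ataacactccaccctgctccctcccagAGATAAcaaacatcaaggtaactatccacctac
Tchh, chr3:93442149-93442208, plus strand: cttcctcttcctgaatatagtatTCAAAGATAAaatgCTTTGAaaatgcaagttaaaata
In Tchh the match overlaps 1 of its pair of CTTTGA matches, and the other stands just behind it. A match is a string of letters and does not show that a factor binds there.

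Levels are in FPKM, fragments corrected for the length of the exons and the depth of the library, so genes can be compared per length. Depth recovered from the values was 13.3 to 25.7 M fragments per library. CON replicate 1 stood apart from the other libraries: its 8 skeletal muscle markers summed to 13312 FPKM, against 450 to 2619 FPKM in the others, and its 13 mitochondrially encoded genes to 118144 FPKM, against 15344 to 30193. It held 2.80 FPKM of the female transcript Xist, against at most 0.168 in the others, beside 22.5 FPKM of the Y-linked gene Ddx3y, which was measured in all 6 libraries. Whether that library came from 1 mouse was not tested, and each n of 3 for CON counts it as 1. CRS replicate 2 differed too: its FPKM total was 358190, against 456513 to 609908 in the others. It had the fewest genes detected, 29509, at the greatest depth. The fraction of follicle tissue in each piece of skin is not known, and in whole skin fewer sheath cells and less RNA per cell cannot be told apart.

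Apart from Krt74, the inner root sheath genes were abundant in the skin. The 9 together held 0.832%, 3.09% and 3.75% of all fragments in CON replicates 1 to 3 and 3.84%, 5.80% and 3.58% in the CRS replicates. Liver markers, taken as genes that skin lacks, stood for comparison at 0.461 to 1.32 FPKM for Alb and Apoa1 together. The sheath genes were thus clearly present in all 6 libraries, including the lowest, CON replicate 1. In order of their mean over the libraries, Tchh stood at 3096 FPKM, Krt71 at 2674 FPKM, Krt27 at 2099 FPKM and Krt25 at 1839 FPKM. They were followed by Krt72 at 730.5 FPKM, Krt28 at 472 FPKM, Krt73 at 449 FPKM, Krt26 at 224 FPKM and Krt74 at 9.85 FPKM. Some steps in this order held in all libraries: Krt25 was above Krt72, Krt73 above Krt26 and Krt26 above Krt74 in 6 of 6. Tchh was above Krt71 in 5 of 6 and Krt71 above Krt27 in 5 of 6. The neighbours Krt27 and Krt25 changed places between libraries, Krt27 being higher in 4 of 6, as did Krt28 and Krt73, Krt28 being higher in 4 of 6.

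In the stressed mice all 9 genes had a fold change above 0, but 0 of the 9 passed the adjusted threshold of 0.05, and 0 of 9 reached an unadjusted p under 0.05. Over all 28389 genes tested the share called was 0%, and the shares at an unadjusted p under 0.05 were 0.919% higher and 1.63% lower in CRS. A fold change above 0 was found in 32.2% of all genes. The median log2 fold change of the 9 was 0.95, and that of all genes was -0.20. The value rested on CON replicate 1, which was the lowest library for 8 of the 9 genes (9.19% of all genes were lowest there). Without it the median of the 9 was 0.17 and that of all genes -0.17, with 7 of 9 above 0 against 34.6% of all genes and again 0% called. The highest library was CRS replicate 2 for 8 of the 9, as for 29.2% of all genes.

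**Figure D1:**
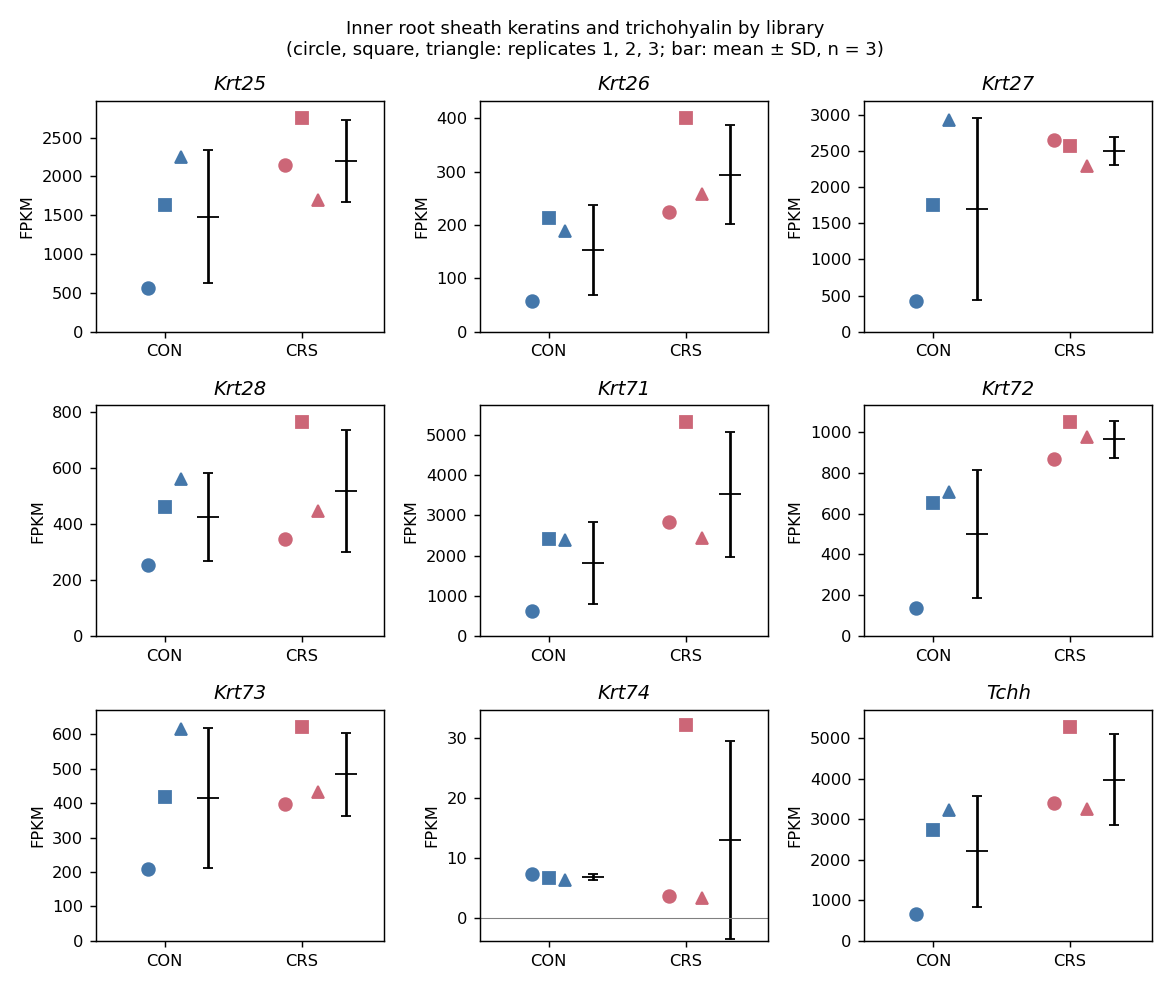
FPKM of each of the 9 genes (vertical axes, linear, each with its own scale) in 3 CON and 3 CRS libraries (points), with mean ± SD (n = 3) beside them. CON replicate 1, the blue circle, is the lowest point for all genes but Krt74, and CRS replicate 2, the red square, the highest for all but Krt27.

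Tchh, the matrix protein gene, stood at 652, 2738 and 3244 FPKM in CON replicates 1 to 3 and at 3404, 5282 and 3257 FPKM in the CRS replicates. All CRS values were above all CON values, but CRS replicate 3 exceeded CON replicate 3 by a small margin only. The means were 2211 ± 1374 and 3981 ± 1129 FPKM (SD, n = 3), a log2 fold change of 1.11 (SE 0.85, 95% interval -0.83 to 3.05, limma adjusted p = 0.9999). The exact two-sided permutation p was 0.1, the smallest that 3 against 3 libraries allow. Without CON replicate 1 the log2 fold change was 0.38.

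Among the type II keratins, Krt71, found in all layers of the human sheath, stood at 638, 2418 and 2399.9 FPKM in CON and at 2829.6, 5309 and 2449.8 FPKM in CRS. The groups did not overlap, although CRS replicate 3 and CON replicate 2 were nearly equal, and CRS replicate 2 was 1.88 times the next library. The fold change of Krt71 was 1.10 in log2 units (SE 0.81, adjusted p = 0.9999 by limma), or 0.47 without CON replicate 1. Krt72, a cuticle keratin, stood at 138, 653 and 703 FPKM in CON and at 868, 1045 and 976 FPKM in CRS. Here too all CRS values were above all CON values, and CON replicates 2 and 3 lay clearly apart from CON replicate 1. Its log2 fold change of 1.27 was the largest of the 9 (SE 0.69, 95% interval -0.30 to 2.84, limma adjusted p = 0.9999), and it was 0.50 without CON replicate 1.

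Krt73, the other type II cuticle keratin, stood at 209, 417 and 616 FPKM in CON and at 398, 621 and 431 FPKM in CRS, so the groups overlapped. In log2 units its fold change of 0.33 (SE 0.52, adjusted p = 0.9999 by limma) turned to -0.095 without CON replicate 1. Krt74, the pseudogene, stood at 7.32, 6.61 and 6.30 FPKM in CON and at 3.60, 32.1 and 3.23 FPKM in CRS. CRS replicates 1 and 3 were the lowest of the 6 libraries, while CRS replicate 2 was 4.38 times the next library. With all libraries Krt74 was 0.10 log2 units above CON (SE 0.79, adjusted p = 0.9999 by limma), and -0.96 without CRS replicate 2. Its longest common stretch is with Krt71. That gene was 87.2, 366 and 381 times Krt74 in CON and 787, 166 and 759 times in CRS. Both genes were highest in CRS replicate 2. Whether fragments of Krt71 were counted for Krt74 was not tested.

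Among the type I keratins, Krt26, a cuticle keratin in the human sheath, stood at 57.4, 213 and 189 FPKM in CON and at 224, 400.5 and 259 FPKM in CRS. The groups did not overlap, with CRS replicate 1 just above CON replicate 2. The fold change of Krt26 was 1.11 in log2 units (SE 0.56, 95% interval -0.17 to 2.39, adjusted p = 0.9999 by limma), or 0.51 without CON replicate 1. The exact permutation p was 0.1 for Krt26, Krt71 and Krt72 as for Tchh. In these 4 of the 9 genes the CRS libraries lay above all CON libraries, as in 1.65% of all genes tested, and in 0 of the 9 they lay below, as in 5.19% of all. Leaving out CON replicate 1, the lowest library for these 4 genes, cannot change that count and so says nothing of its stability. The share of all genes then became 2.78%. With all libraries, CRS also lay above CON in 5 of the 15 hair shaft keratins described below. The same held for 4 of 9 keratins listed for the companion layer and outer root sheath. It held for 4 of 19 hardening and shedding genes and for 0 of 18 regulators. These comparisons hold on the FPKM scale, whose totals differ between libraries. As shares of each library's FPKM total, the 9 genes held 0.619%, 2.10% and 2.83% in CON. In CRS they held 2.20%, 5.24% and 1.93%, so the groups overlapped, as their summed FPKM did. On that scale the groups overlapped for Tchh, Krt26, Krt71 and Krt72 as well. Tchh, for one, was 3244 FPKM of a total of 456513 in CON replicate 3 and 3257 FPKM of 609908 in CRS replicate 3.

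Krt25 stood at 559.9, 1635 and 2251 FPKM in CON and at 2146, 2753 and 1692 FPKM in CRS, where CON replicate 3 exceeded CRS replicates 1 and 3. Krt27 stood at 419.7, 1749 and 2929 FPKM in CON and at 2644, 2572 and 2284 FPKM in CRS. It was the member with its highest value in a control library, CON replicate 3. The log2 fold changes were 0.76 (SE 0.72) for Krt25 and 0.95 (SE 0.83) for Krt27, each with a limma adjusted p of 0.9999, and 0.17 and 0.14 without CON replicate 1. Krt28 stood at 256, 460.4 and 562 FPKM in CON and at 346, 763 and 447 FPKM in CRS. It was lower in CRS replicates 1 and 3 than in CON replicates 2 and 3, and its log2 fold change of 0.28 (SE 0.52, limma adjusted p = 0.9999) turned to -0.052 without CON replicate 1 and to -0.041 without CRS replicate 2.

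**Figure D2:**
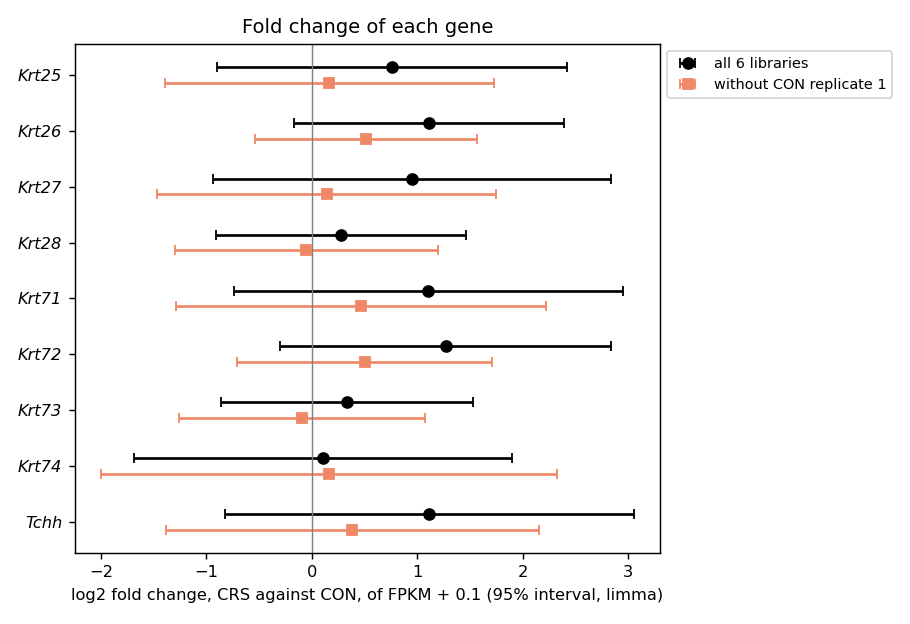
Log2 fold change of each gene, CRS against CON, on the log2(FPKM + 0.1) scale (horizontal axis), with its 95% interval from limma, for all 6 libraries (black) and without CON replicate 1 (orange). All intervals include 0, and for every gene but Krt74 the value without CON replicate 1 lies closer to 0.

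The genes other than Krt74 followed one another from library to library. The Pearson correlation of their log2 levels ran from 0.73 to 0.98 over the 28 pairs and 6 libraries, a description in which all pairs have the low library CON replicate 1 in common. Krt74 had correlations of -0.0018 to 0.60 with the others.

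Tchh, Krt71, Krt27 and Krt25 held the largest shares of the family in all libraries. Tchh made up 22.2% to 28.1% of the summed FPKM, Krt71 18.6% to 28.3%, Krt27 13.7% to 22.7% and Krt25 14.3% to 19.1%. The sum of the type I keratins was 1.30, 1.16 and 1.59 times that of the type II keratins in CON and 1.31, 0.926 and 1.21 times in CRS, so CRS replicate 2 was the library with more type II than type I transcript per length. Tchh over the keratins' sum was 0.285, 0.363 and 0.336 in CON and 0.36, 0.391 and 0.381 in CRS, where CON replicate 2 lay inside the CRS range.

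Of the shares of the 9 genes, only those of Krt28 and Krt73 did not overlap between groups. These shares were singled out after their values were seen. How many other genes lie apart when divided by the same sum was not tested. Shares add up to the whole in each library, so they fall where those of other members rise. Krt28 made up 8.71%, 4.47% and 4.36% of the sum in CON and 2.69%, 4.06% and 3.79% in CRS. Krt73 made up 7.11%, 4.05% and 4.78% in CON and 3.10%, 3.31% and 3.65% in CRS. The gap between the groups was narrow for Krt28, with CON replicate 3 next to CRS replicate 2, and the levels of both genes overlapped. Among the 6 ratios between members whose groups lay apart, the largest difference was between the cuticle neighbours Krt72 and Krt73: Krt72 was 0.661, 1.57 and 1.14 times Krt73 in CON and 2.18, 1.68 and 2.26 times in CRS (exact permutation p = 0.1). Krt26 was 0.224, 0.462 and 0.336 times Krt28 in CON and 0.648, 0.525 and 0.579 times in CRS (exact permutation p = 0.1). In all, the groups lay apart in 6 of the 36 ratios between members, or 16.7%, and all 6 involve Krt28 or Krt73. Among ratios of a member to protein-coding genes outside the family, of at least 1 FPKM in all 6 libraries, the share was 28.8%. It differed widely by member, from 0.995% for Krt74 and 6.81% for Krt73 to 60.2% for Krt26. The difference between these shares was not tested. These ratios were picked after their values were seen, and with 36 compared and a smallest p of 0.1 they cannot pass a correction.

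**Figure D3:**
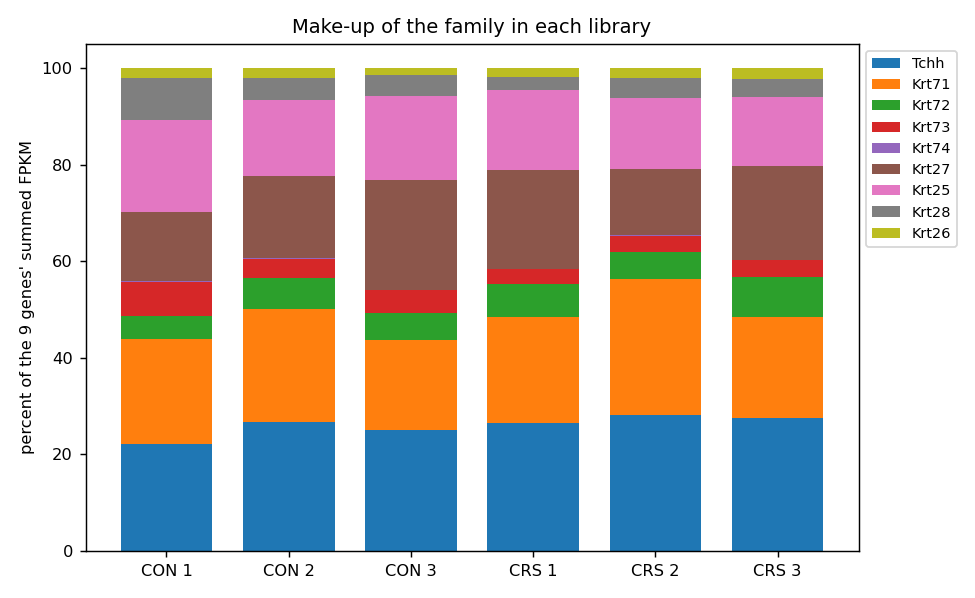
Stacked bars of each gene's percent of the summed FPKM of the 9 genes (vertical axis) in each library. Tchh, Krt71, Krt27 and Krt25 make up most of each bar. Krt28 (grey) and Krt73 (red) are thinner in the CRS than in the CON libraries, by a narrow gap for Krt28. The FPKM of both genes overlapped between groups.

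The sheath was also set against the hair it encloses. The hair shaft keratins, 15 genes of the cortex and cuticle of the hair itself, summed to 2223, 7072 and 4521 FPKM in CON. In CRS they summed to 6618, 8194 and 12471 FPKM. Krt85, also on the list of 16, was not found by symbol and is missing from these sums and the ratios below. The inner root sheath genes summed to 2937, 10290 and 12900.3 FPKM in CON and to 12863, 18778 and 11798 FPKM in CRS. Their ratio, sheath over shaft, was 1.32, 1.46 and 2.85 in CON and 1.94, 2.29 and 0.946 in CRS, and the groups overlapped at both ends. CRS replicate 3 had the highest shaft sum and the lowest ratio, and CON replicate 3 the highest ratio. The mean ratio in CRS was 0.92 times that in CON, and 1.24 times without CON replicate 3. Against Krt5 plus Krt14, keratins of basal keratinocytes and the outer root sheath, the sheath genes were 1.58, 5.80 and 9.82 times as high in CON and 7.55, 8.42 and 6.24 times in CRS. This ratio was lowest in CON replicate 1 and highest in CON replicate 3, whereas the ratio to the hair shaft keratins was not lowest in CON replicate 1.

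**Figure D4:**
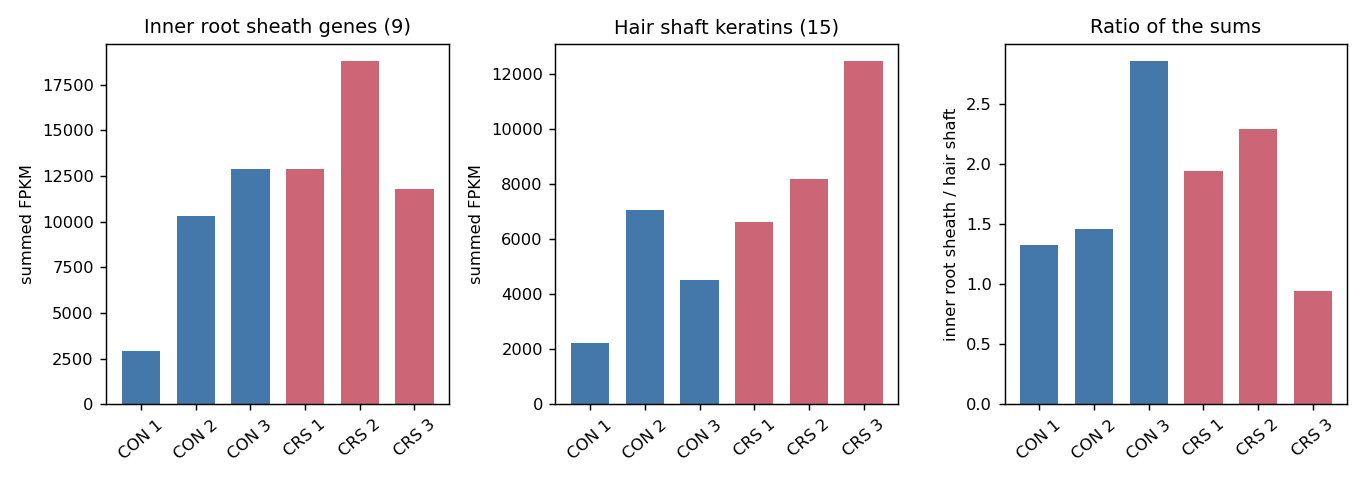
Summed FPKM of the 9 inner root sheath genes (left), of 15 hair shaft keratins (middle) and the ratio of the sums (right) in each library, CON in blue and CRS in red. Both sums are lowest in CON replicate 1, while the ratio overlaps between groups and is lowest in CRS replicate 3.

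Of the 15 hair shaft keratins, 14 had a fold change above 0 and 0 were called in either direction. Their median log2 fold change was 1.06, near the 0.95 of the sheath genes and with the same lowest library for 14 of 15. Krt39 had a log2 fold change of 1.45 (SE 0.42), Krt84 of 1.80 (SE 0.57) and Krt40 of 1.11 (SE 0.37). Keratins listed for the companion layer and outer root sheath were less spread. The list is not confined to these layers, since Krt5 and Krt14 are also keratins of basal keratinocytes. Of its 9 genes, 8 had a fold change above 0, 0 were called, and the median was 0.52. Among them Krt79 had a log2 fold change of 1.11 (SE 0.37), Krt16 of 1.05 (SE 0.49) and Krt6a of 0.52 (SE 0.35).

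Genes listed for the hardening and release of the sheath had fold changes mostly in the direction of its keratins. The list holds enzymes and junction proteins, but also a cystatin and the neighbours of Tchh. Whether these transcripts came from the sheath was not tested. Of 19 such genes 18 had a fold change above 0, 0 were called, and the median log2 fold change was 0.86, with 16 lowest in CON replicate 1. Padi3, the deiminase that acts on trichohyalin, stood at 49.5, 106 and 142 FPKM in CON and at 111, 221 and 112 FPKM in CRS, and the groups overlapped. For the transglutaminases that cross-link it the log2 fold change was 0.67 with SE 0.40 (Tgm1) and 1.22 with SE 0.44 (Tgm3). Tgm3 stood at 11.4, 30.2 and 15.4 FPKM in CON and at 29.3, 59.5 and 38.5 FPKM in CRS. Cst6, a cystatin that inhibits cathepsins, stood at 82.1, 258 and 77.6 FPKM in CON and at 658, 224 and 446 FPKM in CRS, a log2 fold change of 1.77 (SE 0.60). Rptn, a relative of trichohyalin beside it on the chromosome, stood at 2.04, 10.4 and 10.7 FPKM in CON and at 16.4, 31.5 and 15.3 FPKM in CRS, where the groups did not overlap (1.68, SE 0.63). Tchhl1, on its other side, stood at 74.5, 355 and 384 FPKM in CON and at 489.9, 642 and 438 FPKM in CRS, again without overlap (1.25, SE 0.66). All of these had a limma adjusted p of 0.9999.

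The regulators of sheath and hair differentiation had mostly fold changes below 0. Of 18 tested, 15 had a fold change below 0, as did 67.8% of all genes, 0 were called, and the median was -0.45. Gata3, the transcription factor of the sheath lineage, stood at 63.2, 27.6 and 93.1 FPKM in CON and at 36.6, 57.5 and 15.2 FPKM in CRS, a log2 fold change of -0.78 (SE 0.59). Its second highest value was in CON replicate 1, where the sheath keratins were lowest. Lef1, an effector of Wnt signals in the hair matrix, had a log2 fold change of -0.99 (SE 0.44), Sox21, a factor of the hair cuticle, of -0.91 (SE 0.40) and Bmp4, a differentiation signal, of -0.75 (SE 0.43). All 6 proliferation markers had a fold change below 0, from 82.9 to 109 FPKM summed in CON and from 43.9 to 81.6 FPKM in CRS. In the list of signals that shape the sheath, through lipase H, its lipid receptor and the EGF receptor, 2 of 5 fold changes were above 0, 0 were called, and the median was -0.12. On the log2 scale its member Lpar6, the lipid receptor, was at -0.44 with SE 0.29, Tgfa at 0.55 with SE 0.56 and Adam17 at -0.38 with SE 0.45.

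Skeletal muscle markers were highest and dermal fibroblast markers lowest in CON replicate 1, where sheath values were low. All 8 skeletal muscle markers had a fold change below 0, none was at 0 in any library, and their sum ran from 1481 to 13312 FPKM in CON and from 450 to 2544 FPKM in CRS. All 6 dermal fibroblast markers were lowest in CON replicate 1, with sums of 234 to 1277 FPKM in CON and 803 to 1274 FPKM in CRS. Epidermis markers had 6 of 6 fold changes above 0 (median 0.44) and sebaceous gland markers 6 of 6 (0.72). Adipocyte markers had 1 of 4 (-0.21) and melanocyte markers 0 of 5 (-0.59), with 0 called in any of these lists. In CON replicate 1 their median log2 deviations from each gene's mean were -0.79, -0.19, 0.30 and 0.092, in that order. Only the epidermis value was the lowest of the 6 libraries, and none was the highest. The part of these tissues in the sheath values was not tested. Library by library, the muscle markers summed to 13312, 1481 and 2619 FPKM in CON and to 450, 2544 and 806 FPKM in CRS.

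**Figure D5:**
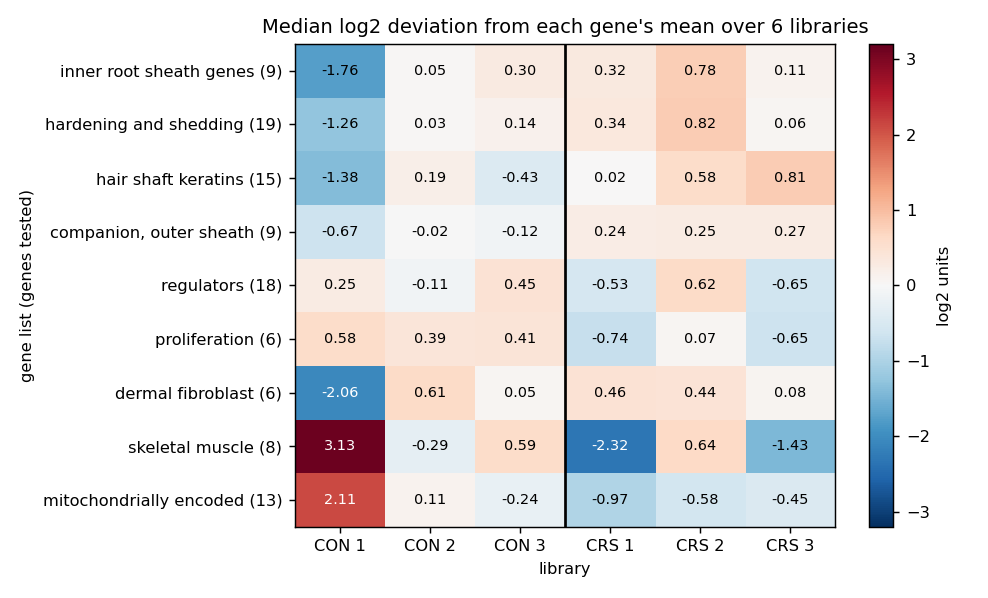
Median log2 deviation of each gene list (rows, with the number of genes tested) from each gene's own mean over the 6 libraries (columns), in log2 units, red above and blue below. In CON replicate 1 the inner root sheath genes stand at -1.76 and the hair shaft keratins at -1.38, while skeletal muscle stands at 3.13 and regulators at 0.25.

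Outside the family, the genes whose log2 levels over the 6 libraries were most like the mean of the 9 were sought among 11636 genes of at least 1 FPKM. In order of Pearson correlation, from 0.995 to 0.984, they were Xkrx, Dnajc6, Mme, Pgm2, Tgm1, Cln8, Pld3, Padi3, Lipm and Srms. Of these, 2 belong to the list of hardening and shedding genes, Tgm1 and Padi3. Mme, the membrane peptidase neprilysin, stood at 0.820, 2.15 and 2.74 FPKM in CON and at 2.55, 4.88 and 2.34 FPKM in CRS. Lipm, a lipase of keratinocytes, stood at 25.6, 45.0 and 48.3 FPKM in CON and at 44.9, 56.8 and 40.8 FPKM in CRS. All 10 were lowest in CON replicate 1 and highest in CRS replicate 2, which the way they were picked made likely.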

How the data were processed

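The deposited values were FPKM, made by the authors, 1 file per library. The submitters' processing notes name HISAT2 and GRCm39. How fragments were counted, with which annotation and strand setting, is not given in the sources used here. For symbols and merged exon lengths GENCODE M21 (GRCm38) was used, which held 54079 of the 54146 identifiers. Since the builds differ, gene coordinates are left out. Exon length multiplied by FPKM gave multiples of 1 step in each library (98.1% to 98.4% of values up to 100 fragments within 0.05 of a whole number), which gave depth and fragments.

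The 28389 genes whose mean reached 0.1 FPKM were compared as log2(FPKM + 0.1) with limma 3.58.1 (R 4.3.3), moderated with a mean-variance trend, two-sided, Benjamini-Hochberg over all of them, threshold 0.05. Fold changes of low genes are understated on that scale. P-values measure the spread between libraries. Exact permutation tests used 3 against 3 log2 values. The fit was tested on simulated data, where few or none of the planted changes as small as the members' were called. An absence of calls here therefore does not show that levels were unchanged.

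Members, lists and promoter letters were chosen with earlier results of these data known. Named genes were the members, the 3 genes with the lowest p in each context list, and the 10 genes most like the members' mean. Padi3, Tgm1, Tchhl1, Gata3, Ddx3y and Xist were added for their role. Alternatives were other pseudocounts, filters, scaling, variance model, a replicate block, left-out libraries and limma voom on recovered fragments. Tables and figures used Python 3.11.15 and pandas 2.3.3. Protein sequences were not used here.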

Additional observations from a re-analysis of the deposited data

How the results depend on the processing

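In every alternative run, 0 genes and 0 members were called with limma. At an unadjusted p under 0.05 there were 261 higher and 462 lower genes with all 6 libraries, and 218 and 337 with voom on recovered fragments. With libraries left out these counts moved to 768 and 4087 without CRS replicate 2, to 757 and 2823 without CON replicate 1 and CRS replicate 2, and to 127 and 131 without CON replicate 1. The median log2 fold change of the 9 genes was 0.94 to 1.19 under other pseudocounts, filters, scalings and variance models, 0.17 to 1.37 with each library left out, and 0.119 without CON replicate 1 and CRS replicate 2. Median-ratio scaling moved the median of all genes from -0.20 to 0.0040; relative to all genes the 9 stood at 1.15 and 1.19. It also turned the unadjusted calls to 421 higher and 184 lower. The members' summed FPKM in CRS was 1.66 times that in CON, and 1.25 to 2.19 times with each library left out. The ratio of sheath to hair shaft sums was 0.77 to 1.24 times that of CON in the same way.

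Single genes turned sign as follows. Without CON replicate 1 and CRS replicate 2, Krt25 was at -0.01, Krt28 at -0.371, Krt73 at -0.29 and Krt74 at -0.902. Without CON replicate 1, Krt28 was at -0.052 and Krt73 at -0.095, and without CRS replicate 2, Krt28 was at -0.041 and Krt74 at -0.961. With libraries left out, the highest values of these genes were 1.17 for Krt25, 0.529 for Krt28, 0.685 for Krt73 and 0.675 for Krt74. The smallest adjusted p of a member over all alternatives was 0.193, for Krt74 without CRS replicate 2.

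A replicate block called 0 genes and left the median at 0.951. Libraries with the same number had correlations of -0.12, 0.062 and 0.087 in their deviations from the group means, so the numbers were not taken to pair the mice.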
